A study of Mus musculus with 6 samples.

Results

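The 33 genes described here encode the enzymes of glycolysis and of the pentose phosphate pathway, with the kinases that set fructose-2,6-bisphosphate, the lactate exporter Slc16a3 and the pyruvate dehydrogenase switch. They were chosen by gene symbol, all 33 were found among the 49315 genes of the count table, and all 33 passed the filter on low counts. Glycolysis splits glucose into triose phosphates and carries these to pyruvate, and lactate dehydrogenase then reduces pyruvate to lactate. The pentose phosphate pathway leaves glycolysis at glucose-6-phosphate, yielding NADPH in its oxidative arm and ribose in its non-oxidative arm. Endothelial cells are known to draw most of their ATP from glycolysis even when oxygen is plentiful, and the fructose-2,6-bisphosphate kinase Pfkfb3 is a known driver of glycolysis in sprouting vessels.

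RNA sequencing had been performed in bEND.3 cells, an immortalized mouse brain endothelial line, after transfection by Lipofectamine 2000. In the GapmeR group the cells received an antisense LNA GapmeR (a short modified oligonucleotide that directs RNase H to its target RNA) against the lncRNA Gm39822, and in the Negative Control group they received a control LNA GapmeR, each at 100 nM. The labels placed 4 samples in the GapmeR group and 2 in the Negative Control group. A single line was used, no label stated that the samples were separate cultures, and no untransfected cells were compared.

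Total counts ranged from 29261988 to 37117934 per sample. Gm39822 had 1 to 4 counts in the GapmeR samples against 56 to 61 in the controls, leaving 3.53% of its control level. The 12 endothelial markers summed to between 9062 and 10379 CPM (counts per 1000000 counts, after TMM normalization) in the GapmeR samples against to between 10840 and 11286 in the controls. All values below are such CPM unless another scale is named. Adjusted p-values are from edgeR's quasi-likelihood test across 18234 genes, in which 20.0% of genes were called lower and 25.4% higher at an adjusted p under 0.05. In bulk RNA, fewer transcripts per cell cannot be told apart from fewer cells that carry them.

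After Gm39822 knockdown, 11 genes between phosphofructokinase and lactate dehydrogenase were lower (Pfkl, Pfkp, Aldoa, Tpi1, Gapdh, Pgk1, Pgam1, Eno1, Eno2, Pkm and Ldha, with log2 fold changes of -0.18 to -0.90), and so was G6pdx. Their relatives Pfkm, Aldoc and Ldhb did not pass the test, nor did the hexokinase, glucose-6-phosphate isomerase, pyruvate dehydrogenase and non-oxidative pentose phosphate genes. The estimate for the scarce Ldhb (-0.36, SE 0.25) lay near that for Ldha (-0.40, SE 0.08). Of the 33 members, 12 were lower (36.4%, against 20.0% of all genes), 1 was higher (against 25.4% of all genes) and 20 did not pass, so that 13 were called in all, against 45.3% of all genes. Leaving out Negative Control 1 left 5 members lower, and leaving out Negative Control 2 left 8. The median log2 fold change over the 33 members was -0.09, against 0.03 over all genes tested. All GapmeR samples lay below both controls in 15 members, against 27.3% of all genes, and above both in 2, against 31.9% of all genes. Only Eno2 and Pfkfb4 changed by at least 1.5-fold, whereas 25.4% of all genes tested did so. With scaling by library size alone, which raised the median log2 fold change of all genes by 0.15, 8 members were lower and 7 higher (Pfkfb4, Hk1, Pfkm, Pdk1, Pdk2, Rpe and Taldo1), against 11.7% of all genes lower and 33.5% higher.

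**Figure D1:**
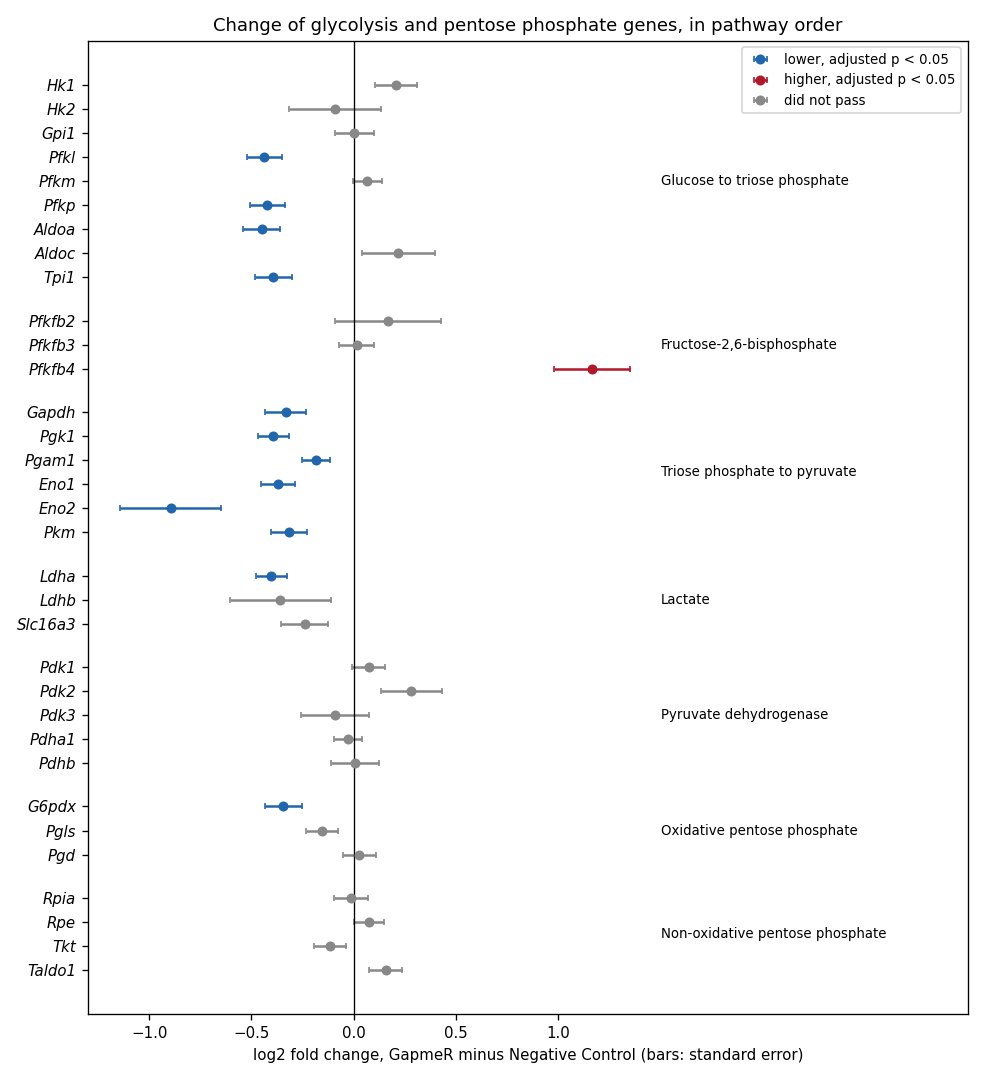
Log2 fold change of each of the 33 genes, GapmeR minus Negative Control, with TMM scaling and bars of 1 standard error from edgeR, in 7 groups by role. All 6 genes from triose phosphate to pyruvate lie to the left of 0, and Pfkfb4 stands alone at 1.16. The 5 pyruvate dehydrogenase genes lie between -0.09 and 0.28, and the 4 non-oxidative pentose phosphate genes between -0.12 and 0.16.

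The share of members called lower differed with expression level. Among members with a mean of at least 100 CPM, 10 of 16 were lower and 0 were higher by edgeR, also at an unadjusted p under 0.05 and by DESeq2 and limma-voom, with a median log2 fold change of -0.33. Over all genes at that level, 40.6% were lower and 10.4% higher, with a median of -0.15. The members' split depended on the setting. With scaling by library size alone, Hk1 and Taldo1 were called higher, and Gapdh, Pgam1, Pkm and G6pdx lost their lower calls. Hk1 and Taldo1 were also called higher without GapmeR 2. Among members below 100 CPM, 2 of 17 were lower and 1 was higher, and their median was -0.01. Over all genes below 100 CPM, 17.1% were lower and 4391 of 15992 higher, with a median of 0.08. The part of expression level in the members' count was not tested.

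**Figure D2:**
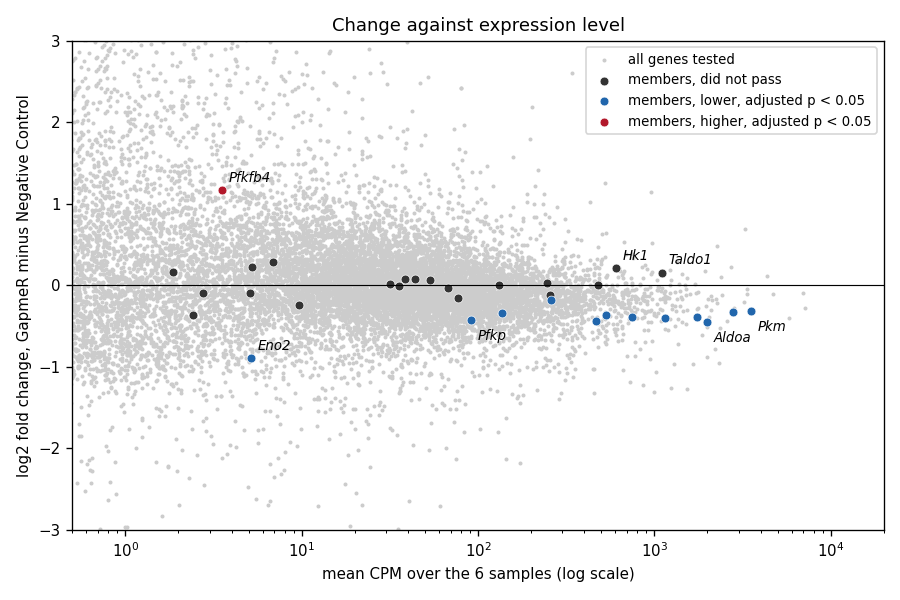
Log2 fold change (GapmeR minus Negative Control) against mean CPM on a log scale, for 13536 of the genes tested in grey and the 33 members in colour, with another 4698 genes outside the axes. The blue members form a band between -0.18 and -0.45 at the right, apart from Eno2 at low level, while Hk1 and Taldo1 lie above 0 at the same levels.

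The first steps of glycolysis did not pass the test. Hexokinase traps glucose as glucose-6-phosphate. Hk1, the form found in most tissues, gave 702, 530.0, 698 and 608 CPM in GapmeR samples 1 to 4 against 552 and 548 CPM in the controls, so that GapmeR 2 lay below both controls and the other GapmeR samples above them. Its log2 fold change was 0.21 (SE 0.10, edgeR adjusted p = 0.12), and without GapmeR 2 it was 0.28 with an adjusted p of 0.0026. Hk2, the inducible form, was scarce, with 2.48, 1.90, 3.45 and 2.94 CPM against 2.59 and 3.10 CPM, and the groups overlapped (log2 fold change -0.09, adjusted p = 0.77). Per kilobase of annotated exon, the control level of Hk1 was 182 times that of Hk2. Gpi1, which turns glucose-6-phosphate into fructose-6-phosphate, averaged 478 ± 54.1 CPM (SD, n = 4) against 477 ± 19.6 CPM (n = 2), with overlapping groups.

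Phosphofructokinase, the main control point of glycolysis, has a liver, a muscle and a platelet form, and these did not move alike. Pfkl, the most abundant of them per kilobase, gave 455, 409, 445 and 369 CPM in the GapmeR samples against 551 and 585 CPM in the controls. The groups did not overlap, and Pfkl fell by 26.1% (log2 fold change -0.44, SE 0.09, edgeR adjusted p = 0.00064). Pfkp gave 88.4, 79.8, 87.6 and 70.3 CPM against 107 and 111 CPM, again without overlap, and fell by 25.4% (log2 fold change -0.42, adjusted p = 0.0009). Pfkm gave 54.8, 52.7, 55.0 and 54.5 CPM against 49.0 and 54.6 CPM, which overlapped (log2 fold change 0.07, adjusted p = 0.48). In the controls, Pfkl was 6.65 times Pfkp and 7.64 times Pfkm in CPM per kilobase. Pfkm shares 391 exon bases with Senp1 on the opposite strand, Pfkp shares 1831 with Pitrm1, and the strand setting of the counts is not given in the sources used here.

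Fructose-2,6-bisphosphate activates phosphofructokinase, and the Pfkfb enzymes make and degrade it. With TMM, Pfkfb4 was the only member that rose. It gave 3.87, 4.01, 4.64 and 4.77 CPM in the GapmeR samples against 1.97 and 1.88 CPM in the controls, so every GapmeR sample was above both controls, and its level rose by 124% (log2 fold change 1.16, SE 0.18, edgeR adjusted p = 8.8e-05). Pfkfb3 gave 32.5, 28.6, 31.4 and 34.2 CPM against 31.4 and 31.3 CPM. Its groups overlapped, and the log2 fold change was 0.01 (SE 0.08, adjusted p = 0.91). Pfkfb3 was the more abundant in both groups, at 3.89 CPM per kb against 0.281 for Pfkfb4 in the controls and 3.93 against 0.630 in the GapmeR samples. Pfkfb2 was at 1.93 ± 0.46 CPM (SD, n = 4) and 1.71 ± 0.41 CPM (n = 2), and did not pass.

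Aldolase splits fructose-1,6-bisphosphate into triose phosphates, which triose phosphate isomerase interconverts. Aldoa gave 1848, 1537, 1911 and 1785 CPM in the GapmeR samples against 2473 and 2362 CPM in the controls, with no overlap, and fell by 26.8% (log2 fold change -0.45, SE 0.09, edgeR adjusted p = 0.0007). Aldoc, the form typical of brain, was at 5.47 ± 1.10 CPM (SD, n = 4) against 4.69 ± 0.03 CPM (n = 2) and did not pass (adjusted p = 0.33). Tpi1 gave 726, 579, 718 and 683 CPM against 918 and 858 CPM, without overlap, and fell by 23.8% (log2 fold change -0.39, adjusted p = 0.0022). Without Negative Control 1 the log2 fold change of Tpi1 was -0.32 and its adjusted p was 0.068.

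From glyceraldehyde-3-phosphate to pyruvate, 6 of 6 members were lower, against 20.0% of all genes. In each, all GapmeR samples lay below both controls, against 27.3% of all genes. Gapdh, the dehydrogenase that feeds NADH and 1,3-bisphosphoglycerate into this phase and a common reference transcript, gave 2791, 2195, 2818 and 2505 CPM in the GapmeR samples against 3373 and 3118 CPM in the controls. It fell by 20.6% (log2 fold change -0.33, SE 0.10, edgeR adjusted p = 0.012). Pgk1, which makes the first ATP of the pathway, gave 1636, 1478, 1574 and 1590.5 CPM against 2099 and 2023 CPM and fell by 23.9% (adjusted p = 0.0006). Per kilobase it was the most abundant of the 33 genes in the controls, at 918 CPM per kb against 453 for Gapdh. Pgam1, the phosphoglycerate mutase, lay between 246 and 254 CPM against 281 and 284 CPM and fell by 11.9% (log2 fold change -0.18, adjusted p = 0.037). Pkm, the pyruvate kinase, gave 3432, 2860.4, 3452 and 3323 CPM against 4161 and 3979 CPM and fell by 19.7% (log2 fold change -0.32, adjusted p = 0.0089). Of these 6 members, only Eno2 had a mean below 100 CPM. Over all genes at or above 100 CPM, 40.6% were lower, and 1156 of 2242 had all GapmeR samples below both controls.

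Enolase catalyses the step before pyruvate kinase, and both of its forms among the members were lower, whereas Eno3, the muscle form outside them, averaged 2.06 CPM against 2.11 CPM and did not pass (edgeR adjusted p = 0.89). Eno1, the form of most tissues, gave 513, 433, 508 and 475 CPM in the GapmeR samples against 647 and 599 CPM in the controls (log2 fold change -0.37, edgeR adjusted p = 0.0018). Near-identical annotated copies held up to 24.8% of the counts of Eno1 and its copies together, which makes its own level uncertain, and with these copies added its log2 fold change was -0.35. Eno2, the enolase typical of neurons, gave 3.10, 3.42, 6.22 and 3.31 CPM against 7.30 and 7.55 CPM. It fell by 46.2% (log2 fold change -0.90, SE 0.25, adjusted p = 0.012), with GapmeR 3 near the controls and the other GapmeR samples far below them. Eno2 (chr6:124760053-124769673), Tpi1 (chr6:124810586-124814158) and Gapdh (chr6:125161852-125166467) lie close together on the minus strand of GRCm38.

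Several of these calls changed with single samples or settings. Without Negative Control 1, with the remaining control assumed to vary like the GapmeR samples, the edgeR adjusted p became 0.18 for Gapdh, 0.24 for Pgam1, 0.067 for Eno1, 0.069 for Eno2 and 0.13 for Pkm. Without Negative Control 2 it became 0.063 for Gapdh, 0.22 for Pgam1, 0.095 for Eno2 and 0.070 for Pkm. Pgam1 passed in 6 of 15 alternatives, and its adjusted p was 0.081 without GapmeR 1, 0.12 without GapmeR 3, 0.059 without a filter, 0.10 with at least 10 counts in every sample and 0.083 with the GC curve removed. Every estimate stayed below 0. With scaling by library size alone, Gapdh, Pgam1 and Pkm also lost their calls, at log2 fold changes of -0.19, -0.03 and -0.17.

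**Figure D3:**
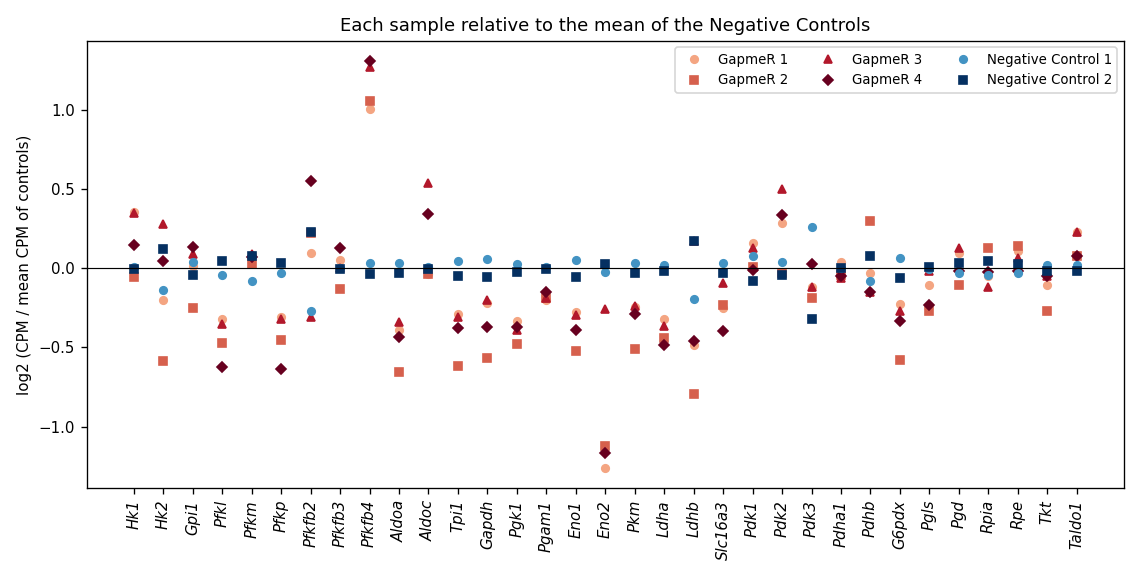
Log2 of each sample's CPM over the mean CPM of the 2 controls, 1 column of points per gene in pathway order. GapmeR 2 (squares in the lighter red) is the lowest of the GapmeR samples in 19 of the 33 genes, and Eno2 in GapmeR 3 sits apart from Eno2 in the other GapmeR samples.

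Lactate dehydrogenase regenerates NAD+ by reducing pyruvate to lactate, and its A subunit dominated in these cells. Ldha gave 1098, 1012, 1065 and 979.7 CPM in the GapmeR samples against 1390.0 and 1356 CPM in the controls, with no overlap, and fell by 24.4% (log2 fold change -0.40, SE 0.08, edgeR adjusted p = 0.00048). Ldhb, the heart-type subunit, gave 2.01, 1.62, 3.16 and 2.04 CPM against 2.45 and 3.16 CPM, and the groups overlapped (log2 fold change -0.36, SE 0.25, adjusted p = 0.25). Without GapmeR 3 its log2 fold change was -0.56 with an adjusted p of 0.038. In the controls, Ldha was 464 times Ldhb per kilobase. Slc16a3, a lactate exporter, was at 9.14 ± 0.79 CPM (SD, n = 4) against 10.8 ± 0.33 CPM (n = 2). Its groups did not overlap, but it did not pass (log2 fold change -0.24, adjusted p = 0.099), and it shares 4529 exon bases with the far more abundant Csnk1d on the opposite strand.

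At the entry of pyruvate into mitochondria, 0 of 5 genes passed by edgeR, against 45.3% of all genes. By DESeq2 and by limma-voom 0 passed as well, and 0 had an unadjusted edgeR p under 0.05. With scaling by library size alone Pdk1 and Pdk2 were called higher, against 33.5% of all genes. Pdha1 and Pdhb, subunits of the first enzyme of the pyruvate dehydrogenase complex, had log2 fold changes of -0.03 (SE 0.07) and 0.01 (SE 0.12). The kinases that switch the complex off were low to moderate. Pdk1 averaged 39.3 ± 2.28 CPM (SD, n = 4) against 37.4 ± 2.94 CPM (n = 2), and Pdk3 4.97 ± 0.31 CPM against 5.33 ± 1.5 CPM. Pdk2 gave 7.32, 5.88, 8.48 and 7.55 CPM against 6.17 and 5.83 CPM, with GapmeR 2 between the controls (log2 fold change 0.28, edgeR adjusted p = 0.14). Without GapmeR 2 the log2 fold change of Pdk2 was 0.38 and its adjusted p was 0.028.

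In the oxidative arm of the pentose phosphate pathway only its first enzyme was lower. G6pdx, which commits glucose-6-phosphate to the pathway and yields NADPH, gave 136, 107, 132 and 127 CPM in the GapmeR samples against 166 and 153 CPM in the controls. The groups did not overlap, and G6pdx fell by 21.3% (log2 fold change -0.35, SE 0.09, edgeR adjusted p = 0.0056). Without Negative Control 1 its log2 fold change was -0.26 and the adjusted p was 0.13, and with scaling by library size alone they were -0.20 and 0.075. Pgls, the lactonase, was at 73.9 ± 5.95 CPM (SD, n = 4) against 82.2 ± 0.44 CPM (n = 2), without overlap but short of the threshold (adjusted p = 0.12). Pgd, which yields the next NADPH and ribulose-5-phosphate, gave 260.2, 226, 266 and 241 CPM against 238 and 249 CPM, which overlapped.

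The non-oxidative arm, which links ribose back to glycolysis, held 4 members, of which 0 passed by edgeR, against 45.3% of all genes. By DESeq2 and limma-voom 0 passed as well, and 0 had an unadjusted edgeR p under 0.05. With scaling by library size alone Rpe and Taldo1 were called higher, against 33.5% of all genes. Rpia and Rpe, which interconvert the pentose phosphates, had log2 fold changes of -0.01 (SE 0.08) and 0.07 (SE 0.07). The transketolase Tkt gave 249, 222, 259 and 259 CPM in the GapmeR samples against 272 and 265 CPM in the controls, all GapmeR samples being lower (log2 fold change -0.12, edgeR adjusted p = 0.24). The transaldolase Taldo1, the fourth most abundant member per kilobase in the controls, gave 1200.1, 1084, 1204 and 1084 CPM against 1038 and 1014 CPM, all GapmeR samples being higher (log2 fold change 0.16, adjusted p = 0.13). Without GapmeR 2 the log2 fold change of Taldo1 was 0.18 with an adjusted p of 0.030. With scaling by library size alone the log2 fold change was 0.03 for Tkt and 0.30 for Taldo1.

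Ratios of genes within a sample do not depend on scaling, and 12 were compared by a 2-sided exact permutation test over the 15 ways to draw such groups from 6 samples, in which 0.0667 is the smallest p possible. The groups did not overlap in 4 of them. The log2 ratio of Pfkfb4 to Pfkfb3 was -3.07, -2.84, -2.76 and -2.84 in the GapmeR samples against -4.00 and -4.06 in the controls, a difference of 1.15 (exact p = 0.0667). Aldoc to Aldoa differed by 0.66 and Pfkm to Pfkp by 0.50, each with an exact p of 0.0667 and 0.267 after adjustment over the 12 ratios. Tkt to Gapdh differed by 0.22 (exact p = 0.133). Pfkl to Pfkp gave 2.37, 2.36, 2.35 and 2.39 against 2.37 and 2.39, the narrowest spread of the 12 ratios in the GapmeR samples, with a difference of -0.01. Eno2 to Eno1, Hk2 to Hk1 and Ldhb to Ldha overlapped between the groups, with differences of -0.58, -0.31 and 0.03.

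**Figure D4:**
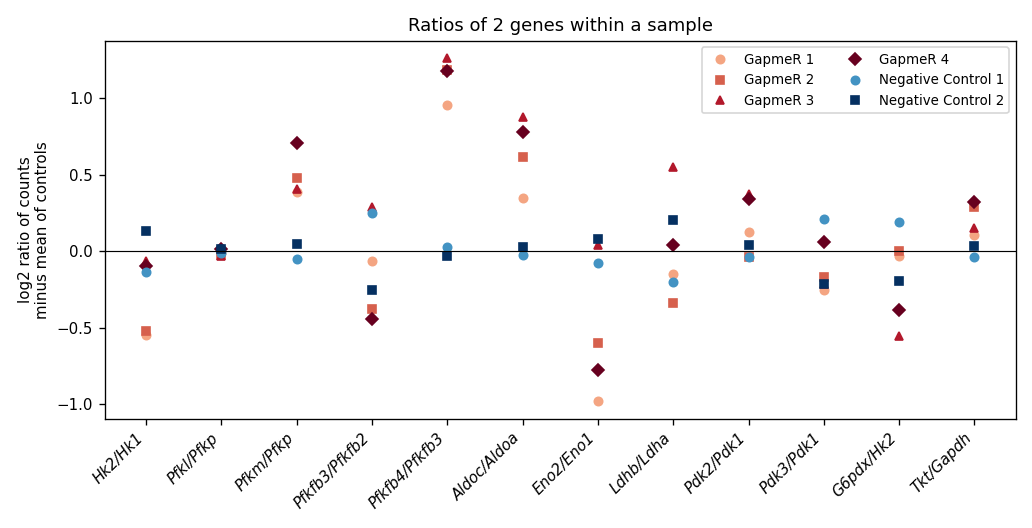
Log2 ratio of counts of 2 genes in each sample minus the mean of that ratio in the 2 controls, for 12 ratios. The red GapmeR symbols stand clear above the blue controls for Pfkm/Pfkp, Pfkfb4/Pfkfb3, Aldoc/Aldoa and, narrowly, Tkt/Gapdh, and all 6 samples coincide for Pfkl/Pfkp.

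The promoters of 4 members that changed are printed as examples of the letters bound by regulators of this pathway. They do not stand for all members that fell. Hypoxia-inducible factors bind the cores ACGTG and GCGTG, and Myc and the Mlx partners bind the E-box CACGTG, which holds ACGTG on both strands. Each line gives the 250 bases before a transcription start from RefSeq on GRCm38.p6, 5′ to 3′ along the gene, with matches to ACGTG or GCGTG on either strand (or their complements CACGT and CACGC) in capitals. The windows are chr7:46845554-46845803 on the plus strand for Ldha, chrX:106186850-106187099 on the plus strand for Pgk1, chr7:126799255-126799504 on the minus strand for Aldoa and chr9:108991652-108991901 on the plus strand for Pfkfb4. Ldha and Aldoa have other annotated starts that are not shown. The other Ldha window and the Aldoa window at chr7:126800448-126800697 held no ACGTG. As annotated, the Ldha, Aldoa and Pfkfb4 genes begin upstream of these windows, at chr7:46842274, chr7:126800994 and chr9:108988272. Their windows therefore lie inside the genes, and only the Pgk1 window lies before its gene.
Ldha: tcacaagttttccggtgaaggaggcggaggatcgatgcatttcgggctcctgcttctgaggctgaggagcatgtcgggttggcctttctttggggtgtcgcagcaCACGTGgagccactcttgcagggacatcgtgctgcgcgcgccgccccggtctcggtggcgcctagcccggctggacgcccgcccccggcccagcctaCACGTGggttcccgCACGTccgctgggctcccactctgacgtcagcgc
Pgk1: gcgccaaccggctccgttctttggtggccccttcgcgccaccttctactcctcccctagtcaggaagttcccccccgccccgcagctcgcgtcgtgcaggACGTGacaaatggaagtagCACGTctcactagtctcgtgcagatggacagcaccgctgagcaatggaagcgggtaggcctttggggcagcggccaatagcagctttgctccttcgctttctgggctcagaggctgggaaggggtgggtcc
Aldoa: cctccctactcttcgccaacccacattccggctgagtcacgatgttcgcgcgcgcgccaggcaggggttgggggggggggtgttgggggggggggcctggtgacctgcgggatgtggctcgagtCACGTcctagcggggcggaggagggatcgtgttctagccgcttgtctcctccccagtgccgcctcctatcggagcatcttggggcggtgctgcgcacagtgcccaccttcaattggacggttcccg
Pfkfb4: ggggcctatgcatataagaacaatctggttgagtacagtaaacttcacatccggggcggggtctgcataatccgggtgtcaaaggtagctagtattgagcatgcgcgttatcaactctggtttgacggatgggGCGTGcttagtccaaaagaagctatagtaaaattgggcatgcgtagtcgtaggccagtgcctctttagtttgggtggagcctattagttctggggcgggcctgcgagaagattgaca
The Ldha window held 5 matches to ACGTG, 4 of them from 2 copies of CACGTG. Pgk1 held 2 matches to ACGTG, Aldoa held 1, and Pfkfb4 held 1 match to GCGTG. In all, ACGTG stood in 17 of the 50 promoters annotated for the 33 members (34%) and in 16.6% of all 32851 promoters of that length. GCGTG stood in 28 of the 50 (56%, against 28.2% of all), and CACGTG in 5 of the 50 (10%, against 6.02%). Windows of 1 gene can overlap, as in Aldoa and Eno1, so that the same site is counted again. By gene, 13 of the 33 members held ACGTG, 23 held GCGTG and 5 held CACGTG. The promoters were not matched for GC content. Among members that were lower, 6 of 18 promoters held ACGTG, and among the other members 11 of 32 did. By gene, 5 of the 12 lower members held ACGTG, among them Ldha, Pgk1 and Aldoa. Tpi1 and Eno2, also lower, held neither ACGTG nor GCGTG. A match is a stretch of letters, and binding was not measured.

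Of the 85 further genes of the same metabolism, 75 were tested, and 17 were higher and 24 lower (the median log2 fold change being -0.02). Their background was again 25.4% higher and 20.0% lower. With scaling by library size alone, 28 were higher and 11 lower. At glucose entry, 3 of 6 tested genes were lower and 2 higher. Slc2a1, the main glucose transporter of the blood-brain barrier, gave 256, 233, 261 and 239 CPM in the GapmeR samples against 336 and 317 CPM in the controls, without overlap (log2 fold change -0.40, edgeR adjusted p = 0.00037). Slc2a6, a related transporter, was at 1.01 ± 0.21 CPM (SD, n = 4) against 1.84 ± 0.03 CPM (n = 2), with a log2 fold change of -0.87 (adjusted p = 0.011). Without either control its adjusted p was 0.078.

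Of the isozymes outside the 33 members, 5 of 12 tested genes were higher and 2 lower with TMM, against 25.4% and 20.0% of all genes. With scaling by library size alone 6 were higher and 0 lower, against 33.5% and 11.7% of all genes. The 2 lower genes were Adpgk and Eno1b (edgeR adjusted p = 0.043 and 0.044). Eno1b is a near-identical copy of Eno1, so the 2 may share reads and their calls are not separate. The rises were in scarce transcripts. Hkdc1, a hexokinase-like enzyme, had 156 to 209 counts in the GapmeR samples against 4 and 9 in the controls (log2 fold change 4.58, SE 0.30, edgeR adjusted p = 3.9e-09). Ldhd, the D-lactate dehydrogenase, had 65 to 96 counts against 5 and 2 (log2 fold change 4.29, adjusted p = 2.5e-07). Hk3, a hexokinase of blood cells, gave 3.04, 2.67, 5.77 and 5.08 CPM against 1.20 and 1.10 CPM (log2 fold change 1.84, adjusted p = 0.0012). Pgam2, the muscle phosphoglycerate mutase, was at 5.38 ± 0.73 CPM against 2.56 ± 0.56 CPM (log2 fold change 1.07, adjusted p = 0.00024). In the GapmeR samples, Hkdc1 stood at 1.03 CPM per kb against 72.4 for Hk1.

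Around pyruvate and lactate, 4 of 12 tested genes were lower and 2 higher with TMM, against 20.0% and 25.4% of all genes. With scaling by library size alone 1 was lower and 5 higher, against 11.7% and 33.5% of all genes. Bsg, the chaperone of lactate transporters, fell to 631 ± 23.4 CPM (SD, n = 4) from 763 ± 38.1 CPM (n = 2) (log2 fold change -0.27, edgeR adjusted p = 0.007), a call that was lost without Negative Control 1 (adjusted p = 0.16) and with scaling by library size alone (adjusted p = 0.16). Pdp1, the phosphatase that switches pyruvate dehydrogenase on, fell (log2 fold change -0.37, adjusted p = 0.0015). Pcx, which carboxylates pyruvate to oxaloacetate, rose to 11.8 ± 1.22 CPM from 7.52 CPM in each control (log2 fold change 0.65, adjusted p = 0.00044), and Pdpr, the regulatory subunit of the phosphatase, rose (log2 fold change 0.61, adjusted p = 0.0032). Of the other pentose phosphate genes, 1 of 6 tested was higher and 1 lower with TMM, against the same shares of all genes. With scaling by library size alone 3 were higher and 0 lower. The TMM calls were Prps1, which makes phosphoribosyl pyrophosphate (log2 fold change 0.24, adjusted p = 0.037), and H6pd, the glucose-6-phosphate dehydrogenase of the endoplasmic reticulum (log2 fold change -0.42, adjusted p = 0.0065). The adjusted p of H6pd was 0.14 without Negative Control 1 and 0.065 with scaling by library size alone, and for Prps1 it was 0.31 without Negative Control 2 and 0.095 without GapmeR 4.

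In the side branches of glycolysis, 7 of 23 genes were higher and 5 lower with TMM, against 25.4% and 20.0% of all genes, and 10 were higher and 3 lower with scaling by library size alone. Gpd1, which draws dihydroxyacetone phosphate off to glycerol-3-phosphate, had 287 to 373 counts in the GapmeR samples against 6 and 14 in the controls (log2 fold change 4.78, SE 0.23, edgeR adjusted p = 1.1e-10). Gbe1, the glycogen branching enzyme, gave 8.32, 7.32, 7.54 and 7.21 CPM against 21.2 and 22.9 CPM, and fell by 65.6% (log2 fold change -1.54, adjusted p = 3.4e-09). Fbp2 and Fbp1, which reverse the phosphofructokinase step, rose with log2 fold changes of 1.72 (adjusted p = 0.0033) and 0.71 (adjusted p = 0.0018). For Fbp1 the adjusted p was 0.056 without Negative Control 2.

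Among 16 tested genes that regulate transcription of the pathway, 9 were lower by edgeR, against 20.0% of all genes. Of these regulators 0 were higher, against 25.4% of all genes, also at an unadjusted p under 0.05 and by DESeq2 and limma-voom. Over all genes with a mean of at least 100 CPM, 40.6% were lower and 10.4% higher. With scaling by library size alone, 5 regulators were lower and 2 higher (Egln1 and Egln3, which mark the hypoxia-inducible factors for decay). The shares of all genes were then 11.7% and 33.5%. Hif1a, the oxygen-sensitive subunit of the hypoxia-inducible factor, gave 218, 229.6, 199 and 204 CPM in the GapmeR samples against 281 and 290.2 CPM in the controls (log2 fold change -0.43, adjusted p = 0.00023). Epas1, its endothelial relative, fell by 30.9% (log2 fold change -0.53, adjusted p = 2e-05). Myc fell by 25.9% (log2 fold change -0.43, adjusted p = 0.0006), and Mlx, the partner of the glucose-sensing factors, by 36.2% (log2 fold change -0.65, adjusted p = 1.6e-05). All 4 were lower in every GapmeR sample than in both controls. Protein levels were not measured.

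Markers of other cell types also differed between the groups, and 2 of the genes above varied with them from sample to sample. The 8 neuron and glia markers summed to 31.8, 33.8, 50.4 and 29.6 CPM in the GapmeR samples against 63.6 and 63.0 CPM in the controls, with 5 of 8 lower (2 of 8 with scaling by library size alone), and GapmeR 3 was the highest GapmeR sample for this sum as for Eno2. The 10 macrophage markers summed to 227, 208, 351 and 384 CPM against 178 and 173 CPM, with 2 of 10 higher, and the same 2 samples, GapmeR 3 and GapmeR 4, were highest for Hk3. The 8 smooth muscle and pericyte markers summed to 8.5 to 12.9 CPM against 1.94 to 2.04 CPM, with 2 of 6 tested higher. Most of this difference came from Myh11, which averaged 5.64 CPM against 0.31 CPM. Tagln was also higher, while Acta2, Pdgfrb, Rgs5 and Cspg4 did not pass. No marker of these lists was at 0 in every sample. Of the 12 endothelial markers, 6 were lower and 2 higher with TMM, and 4 were lower and 4 higher with scaling by library size alone. Over all genes, 20.0% were lower and 25.4% higher with TMM, and 11.7% and 33.5% with scaling by library size alone. The part of these cell type markers in the changes of Eno2 and Hk3 was not tested.

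**Figure D5:**
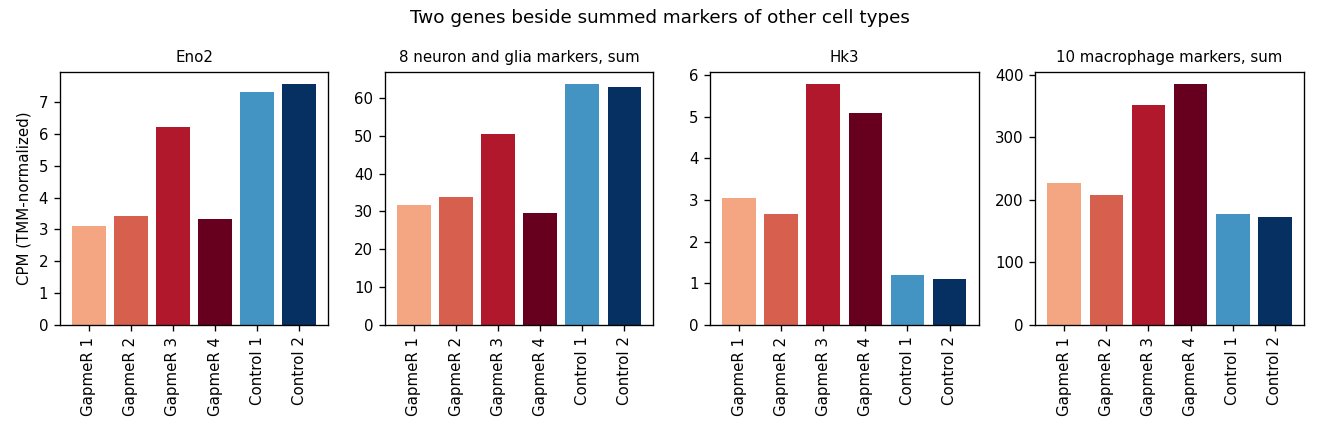
CPM of Eno2, of the summed 8 neuron and glia markers, of Hk3 and of the summed 10 macrophage markers, 1 bar per sample, each panel from 0. Eno2 and the neuron and glia sum share their highest GapmeR sample (GapmeR 3), and Hk3 and the macrophage sum are both highest in GapmeR 3 and GapmeR 4.

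The samples of the GapmeR group did not carry the lower calls equally. Over the 12 members that were lower, the median log2 level relative to the controls was -0.30 in GapmeR 1, -0.52 in GapmeR 2, -0.30 in GapmeR 3 and -0.39 in GapmeR 4. GapmeR 2 was the lowest GapmeR sample in 7 of these 12 genes. The 33 members together took 1.68%, 1.46%, 1.68% and 1.60% of all counts in GapmeR samples 1 to 4, against 1.80% and 1.72% in the controls. The shares did not overlap between the groups. Leaving out GapmeR 2 left 12 members lower.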

How the data were processed

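Total RNA of bEND.3 cells was sequenced as paired reads after ribodepletion, according to the study's methods, while the sample labels name an ultra-low-input library kit. The authors deposited raw counts of reads, 1 whole number for each Ensembl gene and sample. Per the study's methods, reads went through bcbio-nextgen, and STAR aligned them to the mm10 genome after trimming. The submitters' processing notes name Trimmomatic 0.36, STAR 2.5.2b and Subread 1.5.2, with no role stated for each. The strand setting and Ensembl release are not given in the sources used here, so reads of overlapping genes may be shared.

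Samples were grouped by their titles into 4 GapmeR and 2 Negative Control samples, and 1 further column of per-sample counts, matched by no label, was not used. The study states 4 samples in each group. Because no label states separate cultures, p-values measure the spread between these samples, which may be technical. Replicates differed beyond sampling noise, with a chi-square per degree of freedom of 6.01 to 28.9. Counts were tested with edgeR 4.0.16 in R 4.3.3 (TMM, robust quasi-likelihood, Benjamini-Hochberg over the 18234 genes that reached 5 counts in 2 or more samples). The scripts were tested on simulated data. The biological coefficient of variation was 8.42%. Alternatives were DESeq2 1.42.0, limma-voom (limma 3.58.1), other scalings and filters, a replicate block, each sample left out and, chosen after seeing the data, a GC correction and the sum with near-identical copies (blastn 2.17.0, at least 95% identity over at least 300 bases).

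Members and lists were chosen with earlier results of these data known. All 33 members were named, with values in every sample for those that changed at least 1.5-fold, for the rate-setting or branch enzymes and for Gapdh, and for some others chosen after their values were seen. Of each further list, up to 4 genes with the largest changes, an adjusted p under 0.05 and a mean of at least 1 CPM were named. Levels per kilobase used the union of annotated exons. Motifs were counted in the 250 bases before each RefSeq start rather than in the 300 planned, to leave out the bases after that start. Some windows still lie inside a gene that has a start further upstream. Fold changes and standard errors carry both counting and sample error, and 3 counts equalled 0.081 to 0.10 CPM on total counts, before TMM normalization.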

Additional observations from a re-analysis of the deposited data

Results flagged for a closer look

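Within the 4 GapmeR samples, 53 genes (the members and the named genes of the further lists) were examined for a sample whose gap to its nearest neighbour took up more of the group's range than Dixon's 95% critical value, and 3 genes had one. Chance gives such a gap in about 1 of 20 groups.

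Eno2 stood at 6.22 CPM in GapmeR 3, against 3.10 to 3.42 CPM in the other GapmeR samples, and the gap was 0.90 of the range. Hkdc1 stood at 6.47 CPM in GapmeR 4, against 4.81 to 5.03 CPM in the others (0.87 of the range). Bsg stood at 596 CPM in GapmeR 2, against 639 to 645 CPM in the others (0.87 of the range). Each of these values lay on the same side of both controls as the rest of its group.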

How the results depend on the processing

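All 13 members that passed kept their sign in each of up to 15 alternatives, and 6 of them (Pfkl, Pfkp, Pfkfb4, Aldoa, Pgk1 and Ldha) passed in every one. A further 7 members passed in some alternative only. Scaling by library size alone gave 6106 genes higher (33.5%) and 2135 lower (11.7%), against 4625 (25.4%) and 3643 (20.0%) with TMM. It gave 7 members higher and 8 lower, and 28 genes of the further lists higher and 11 lower, with the median of all genes shifted by 0.15 (log2). Members called higher numbered 2 without a filter, 2 with at least 10 counts in every sample and 3 with the GC curve removed, against 1. Leaving out 1 sample at a time gave 5238 to 8776 genes called, 1928 to 3979 of them lower. The members called ranged from 6 to 16, those lower from 5 to 12, those higher from 1 to 4 and those at least 1.5-fold changed from 1 to 2. The further lists gave 24 to 43 genes called, 11 to 23 of them lower. The lowest counts came without a control, which leaves a lone control sample. The log2 ratio of Pdk3 to Pdk1 differed between the groups by -0.36 to 0.068. With the longest transcript in place of the exon union, control levels per kilobase became 341 times for Hk1 over Hk2, 574 for Aldoa over Aldoc, 67.2 for Eno1 over Eno2, 5.68 for Pfkl over Pfkp, 5.05 for Pdk1 over Pdk2 and 14.4 for Pfkfb3 over Pfkfb4, against 182, 448, 44.2, 6.65, 6.09 and 13.9. The causes of these shifts were not tested.

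The groups share replicate numbers 1 and 2, but same-numbered samples did not deviate together (correlations of -0.11 and 0.17 over 8870 genes), so the numbers were not taken as pairs. A replicate block gave 7798 genes called, of which 7131 were shared with the 8268 of the fit without it, and 13 members called, with Pgam1 lost (adjusted p = 0.18) and Ldhb gained (adjusted p = 0.020). Hk2, Ldhb and Pfkfb2 lay near 2 to 3 CPM, and the standard errors of their log2 fold changes were 0.23, 0.25 and 0.26, against 0.08 for Ldha.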

Other observations

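The following genes of the side branches were chosen after their values were seen, from a list in which the shares called lay near those of all genes, and they are given as values only. The gene listed as Pgm2, which RefSeq names Pgm1 and which encodes the main phosphoglucomutase, was lower by edgeR (log2 fold change -0.62, adjusted p = 0.00057), and the gene listed as Pgm1, with the symbols likewise crossed, was higher (0.28, adjusted p = 0.0036). Ugp2, which makes UDP-glucose, and Gys1, the glycogen synthase, were lower (log2 fold changes of -0.44 and -0.32, with adjusted p = 0.0087 and 0.0055). With scaling by library size alone, Ugp2 and Gys1 no longer passed (log2 fold changes of -0.29 and -0.17).

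Gpd1l, a relative of Gpd1, averaged 15.5 CPM (n = 4) against 10.1 CPM (n = 2), with a log2 fold change of 0.62 (edgeR adjusted p = 9.1e-05). Pck2, the mitochondrial phosphoenolpyruvate carboxykinase, averaged 61.8 CPM against 43.9 CPM (log2 fold change 0.49, adjusted p = 6.9e-05). Akr1b3, which starts the polyol branch from glucose, averaged 117 CPM against 155 CPM (log2 fold change -0.41, adjusted p = 0.00034).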
